A study of Mus musculus with 4 samples.

Results

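The 4 C/EBP genes Cebpa, Cebpb, Cebpd and Cebpe, the transcription factor genes Spi1, Gfi1 and Gfi1b, and the growth factor receptor genes Csf1r, Csf2rb and Csf3r were followed in 4 RNA-seq libraries of mouse pre-B cells. These 10 genes were taken by symbol from 23284 listed symbols, and all 10 were found, Spi1 under its older symbol Sfpi1. Pre-B cells are marrow B lymphoid precursors with a rearranged heavy chain gene. The C57BL/6J libraries came from STAP-2 transgenic marrow at steady state, wild-type marrow at steady state, marrow labelled STAP-2 knockout 1 month after transplantation, and wild-type marrow 1 month after transplantation. Each group had 1 library, so no difference below has a replicate check. The series addresses poor B lymphopoiesis in the transgenic marrow and the pathways that the adaptor STAP-2 regulates under haematological stress. How the transgene is driven, how many animals were used, how cells were sorted and what the transplant hosts were is not given in the sources used here. Both transplanted libraries carry another code in their titles than the steady-state ones, so transplantation and that code cannot be told apart.

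C/EBP proteins are basic leucine zipper transcription factors that bind DNA as dimers. C/EBPα starts the granulocyte and monocyte programme, C/EBPβ serves emergency granulopoiesis and macrophages, C/EBPδ responds to inflammation, and C/EBPε drives late neutrophil maturation. PU.1, the product of Spi1, is needed in both myeloid and B cells, and C/EBP factors together with PU.1 switch on the genes of the G-CSF receptor (Csf3r), the M-CSF receptor (Csf1r) and many granule proteins. GFI1 and GFI1B are zinc finger repressors, the first of neutrophils and lymphoid progenitors, the second of erythroid and megakaryocytic cells. Csf2rb encodes the common β chain of the GM-CSF, IL-3 and IL-5 receptors. Forced expression of C/EBPα or C/EBPβ turns B cells into macrophages in mice. STAP-2 was itself found as a protein that binds the M-CSF receptor.

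Values were deposited per gene as FPKM, a level scaled for transcript length and library size. Depth was about 7260000 reads in the transgenic library, 7320000 in steady-state wild type, 8710000 in the library labelled knockout and 7770000 in transplanted wild type, estimated from the steps that single reads leave among low values. The 95% intervals below come from such reads and cover counting error only. Stap2 rested on 5 reads in the transgenic library and 2 in steady-state wild type, and on 2 reads in the library labelled knockout and 0 in transplanted wild type. These reads are too few to check either label, and the library labelled knockout was not the lower of its pair. All 8 B lineage markers were read in all 4 libraries, led by Cd79a, a signalling chain of the B cell receptor, with 1620 to 1950 FPKM. Markers of stages within the B lineage differed in both pairs. At steady state the surrogate light chain gene Vpreb1 was at 34.4 FPKM in the transgenic library and at 7.31 in wild type, Igll1 at 39.9 and 14.6, and the recombinase gene Rag1 at 429 and 638. After transplantation the ratio of the library labelled knockout to wild type was 1.28 (1.02 to 1.62) for Vpreb1, 1.37 (1.13 to 1.65) for Igll1 and 0.631 (0.619 to 0.644) for Rag1. Their part in the levels below was not tested. Neutrophil markers were read as well: the 9 markers summed to 1760 FPKM in the transgenic library and 737 in steady-state wild type, and to 622 in the library labelled knockout and 1610 in transplanted wild type, with none at 0. In such bulk samples fewer cells of a type and less RNA per cell cannot be told apart.

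The upstream sequences of 4 of the genes with a promoter entry are shown side by side: Cebpb and Csf3r, whose levels were higher in the transgenic library and lower in the library labelled knockout than in their wild types, Cebpa, the lowest of the C/EBP genes on average, and Gfi1b, whose value was above its wild type in both pairs, though not beyond counting error. Each run holds the 250 bases before the RefSeq start site on GRCm38.p6, read 5′ to 3′ on the gene's strand, at chr2:167688665-167688914 (Cebpb, plus strand), chr4:126024409-126024658 (Csf3r, plus strand), chr7:35119043-35119292 (Cebpa, plus strand) and chr2:28621983-28622232 (Gfi1b, minus strand). Capitals mark matches on either strand to letters typical of 4 kinds of site. That of C/EBP factors was searched as TTGCNNAA. That of PU.1 was searched as GAGGAA. That of the GFI repressors was searched as AAATC. The TATA box was searched as TATAAA.
Cebpb: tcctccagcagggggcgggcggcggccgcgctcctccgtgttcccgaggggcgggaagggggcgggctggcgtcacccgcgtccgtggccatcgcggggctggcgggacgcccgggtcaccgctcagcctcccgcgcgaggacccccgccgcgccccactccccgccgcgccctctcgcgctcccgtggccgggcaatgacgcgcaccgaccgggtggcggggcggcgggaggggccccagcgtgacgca
Csf3r: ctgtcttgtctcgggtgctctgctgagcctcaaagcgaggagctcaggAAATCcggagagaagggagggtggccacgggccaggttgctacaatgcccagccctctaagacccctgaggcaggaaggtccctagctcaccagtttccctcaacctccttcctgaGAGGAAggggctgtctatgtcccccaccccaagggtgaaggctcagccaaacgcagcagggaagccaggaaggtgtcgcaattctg
Cebpa: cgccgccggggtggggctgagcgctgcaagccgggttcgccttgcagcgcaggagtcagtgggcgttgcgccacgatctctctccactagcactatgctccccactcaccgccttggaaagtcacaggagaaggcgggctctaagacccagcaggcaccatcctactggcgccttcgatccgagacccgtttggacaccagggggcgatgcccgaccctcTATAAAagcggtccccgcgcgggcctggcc
Gfi1b: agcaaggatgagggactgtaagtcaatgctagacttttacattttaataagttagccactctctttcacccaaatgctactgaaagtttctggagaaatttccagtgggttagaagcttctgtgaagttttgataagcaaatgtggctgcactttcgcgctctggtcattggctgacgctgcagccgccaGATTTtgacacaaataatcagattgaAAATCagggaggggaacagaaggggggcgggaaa

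Of the 10 genes 5 had an entry in the RefSeq promoter table, these 4 and Gfi1. The Cebpb run was 81.6% G and C and the Cebpa run 66.4%, the Csf3r run 60% and the Gfi1b run 44.4%, against a median of 52.4% over the same window of all 32851 start sites. The C/EBP letters stood in none of these 4 runs and once in the window of the second of 2 Gfi1 start sites, 143 to 136 bases before it, and 9.56% of all windows held them. Csf3r had 1 PU.1 match, ending 81 bases before the start (23.3% of all windows hold at least 1), and 1 GFI match. Gfi1b had 2 GFI matches, at 60 to 56 and 34 to 30 bases before the start, which do not overlap, where 32.7% of windows held at least 1. Cebpa had a TATA box 30 to 25 bases before the start, as had 12.4% of windows. A match describes letters, not binding.

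The C/EBP genes were low, none above 4.28 FPKM in any library. They share a compact build: Cebpa, Cebpb and Cebpd are annotated in GENCODE M21 with transcripts of 1 exon and Cebpe with 2, against 5 for Spi1 and 22 for Csf1r. Cebpb (GRCm38, chr2:167688915-167690418) reached 3.61 FPKM in the transgenic library and 0.842 in steady-state wild type, from 34 and 8 reads. It stood at 1.86 FPKM in the library labelled knockout and 4.28 in transplanted wild type, from 21 and 43 reads. Cebpb was thus high in the transgenic and the transplanted wild-type libraries, whose levels did not differ beyond counting error (ratio of transplanted wild type to transgenic 1.19, 95% interval 0.736 to 1.91). Its ratio was 4.28 (1.95 to 10.7) for transgenic over wild type, and it was 2.29-fold lower (1.33 to 4.07) in the library labelled knockout than in transplanted wild type.

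Cebpe (chr14:54710360-54712174), the late neutrophil factor, was at 2.27 FPKM in the transgenic library and at 0.530 in steady-state wild type, from 17 and 4 reads, a ratio of 4.28 (1.40 to 17.5). It was at 0.559 FPKM in the library labelled knockout and 1.5 in transplanted wild type, from 5 and 12 reads, and that ratio of 0.372 had an interval that reached 1 (0.103 to 1.13). Cebpe ranked highest in the same pair of libraries as Cebpb, with fewer reads behind it. Its ratio of transplanted to steady-state wild type was 2.84, with an interval that also reached 1 (0.857 to 12.0). Transplanted wild type was thus not resolved as high for Cebpe. Cebpa (chr7:35119293-35121928) was under 1 FPKM in every library, with 0.735 FPKM in the transgenic library and 0.112 in steady-state wild type, from 13 and 2 reads (ratio 6.55, 1.48 to 59.8). After transplantation Cebpa rested on 7 reads in the library labelled knockout and 7 in wild type, at 0.331 and 0.371 FPKM. The interval of that ratio was 0.267 to 2.98, so a change of Cebpa within it was not detectable at this depth.

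Cebpd (chr16:15887286-15891031), the inflammation-induced member, had 8 reads in the transgenic library and 8 in steady-state wild type, at 0.536 and 0.532 FPKM (ratio 1.01, 0.330 to 3.08). It had 3 reads in the library labelled knockout and 12 in transplanted wild type, at 0.168 and 0.754 FPKM, 4.48-fold lower (1.21 to 24.8). Its reads are the fewest that the steps between libraries allow, since no annotated length gave whole reads. Summed over the 4 C/EBP genes, the level was 7.15 FPKM in the transgenic library and 2.02 in steady-state wild type, against values after transplantation of 2.92 in the library labelled knockout and 6.90 in transplanted wild type. In reads per depth, the sums of 72 and 22 reads gave a ratio of 3.30 (2.02 to 5.59) for transgenic over wild type, and those of 36 and 74 reads a ratio of 0.434 (0.283 to 0.655) for the library labelled knockout over transplanted wild type.

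**Figure D1:**
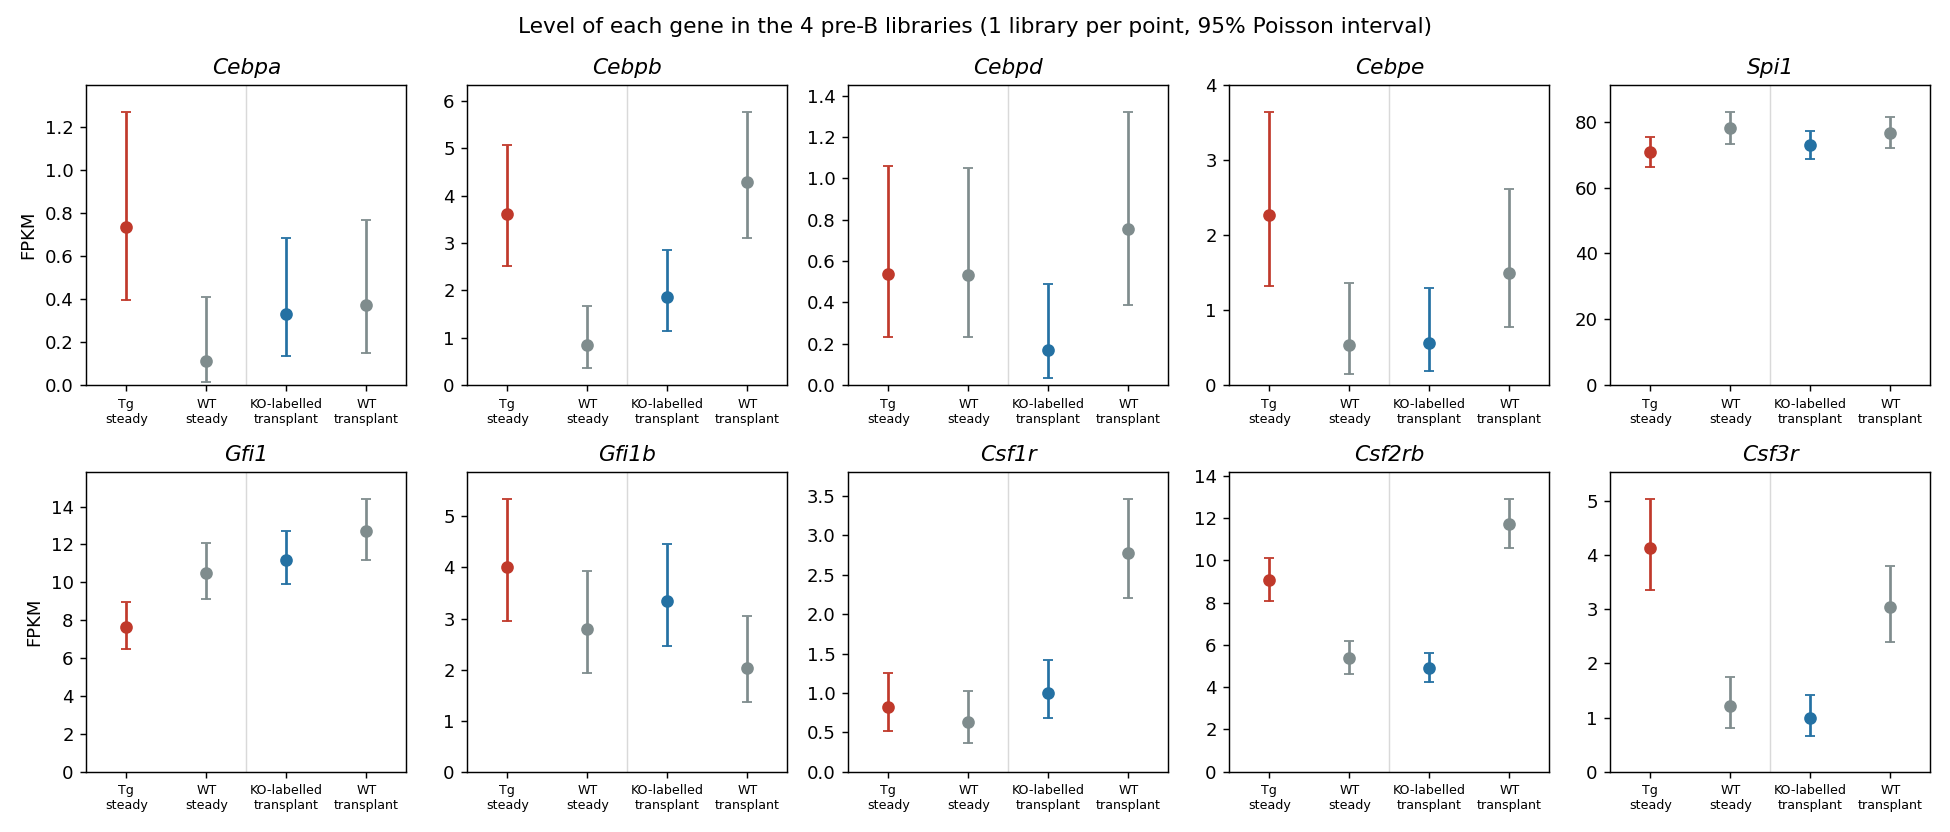
FPKM of each of the 10 genes in the 4 libraries, with 1 library per point and 95% Poisson intervals from estimated reads. Cebpb, Csf2rb and Csf3r were high in the transgenic and the transplanted wild-type libraries, Spi1 lay between 70.8 and 78.0 FPKM in all 4, and Csf1r stood out in transplanted wild type alone at 2.78 FPKM. Cebpe ranked highest in the same pair as Cebpb, but its value in transplanted wild type was not resolved from steady-state wild type or the library labelled knockout.

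Spi1 (chr2:91082390-91115756) was the highest of the 10 genes in every library and had the smallest range. It was at 70.8 FPKM in the transgenic library and at 78.0 in steady-state wild type, a ratio of 0.908 (0.830 to 0.992), and at 72.8 in the library labelled knockout and 76.5 in transplanted wild type, a ratio of 0.951 (0.875 to 1.03). The highest library exceeded the lowest 1.1-fold, and no neighbours in the order of the 4 levels differed beyond counting error. The highest and the lowest, steady-state wild type and the transgenic library, did differ beyond it, since the interval above excluded 1. The small difference of the transplanted pair changed sign, from -0.07 to 0.03 on the log2(FPKM + 1) scale, when both libraries were scaled to the same sum. Spib, the related ETS factor gene of B cells, was higher still, at 675 FPKM in the transgenic library and at 882 in steady-state wild type, and at 879 in the library labelled knockout and 766 in transplanted wild type.

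Gfi1 (chr5:107716657-107726036), the repressor shared by neutrophils and lymphoid progenitors, was lowest in the transgenic library. It stood there at 7.62 FPKM and at 10.5 FPKM in steady-state wild type, 1.38-fold lower (1.11 to 1.71) in the transgenic library, and at 11.2 in the library labelled knockout and 12.7 in transplanted wild type (ratio 0.882, 0.740 to 1.05). Its sign at steady state was thus opposite to those of Cebpb and Csf3r. Gfi1b (chr2:28609450-28621982) was at 4.0 FPKM in the transgenic library and at 2.79 in steady-state wild type (ratio 1.43, 0.901 to 2.31), and at 3.34 in the library labelled knockout and 2.04 in transplanted wild type (ratio 1.64, 0.978 to 2.71). Both intervals held 1, so neither difference exceeded counting error, although the lower bound after transplantation was 1.02 when reads were taken over the whole transcript length. The 6 erythroid markers summed to 5.03 FPKM in the transgenic library and 35.9 in steady-state wild type, and to 8.91 in the library labelled knockout and 6.00 in transplanted wild type. The 5 megakaryocyte markers summed to 4.34 and 8.73 FPKM in the transgenic and wild-type libraries at steady state, and to 0.624 and 1.62 in the library labelled knockout and transplanted wild type. These sums rest largely on single genes. In steady-state wild type the globin gene Hba-a1 was at 32.6 FPKM and the megakaryocyte marker Ppbp at 4.38. Pf4, also of megakaryocytes, was higher in the transgenic library, at 3.26 FPKM against 2.51. The part of such cells in the level of Gfi1b was not tested. Gata1, the factor that defines erythroid and megakaryocytic cells, was under 1 FPKM in each library, at most 0.682 in steady-state wild type.

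Among the receptors, Csf3r (chr4:126024550-126044440) had the largest ratio in both genotype comparisons. It stood at 4.12 FPKM in the transgenic library and at 1.22 in steady-state wild type, from about 98 and 29 reads, a ratio of 3.38 (2.23 to 5.35). In the library labelled knockout it was at 0.989 FPKM and in transplanted wild type at 3.03, from about 28 and 77 reads, 3.07-fold lower (1.98 to 4.94). The libraries fell into a high pair, transgenic and transplanted wild type, and a low pair, steady-state wild type and the one labelled knockout. Within the low pair the levels did not differ beyond counting error (ratio of steady-state wild type to the library labelled knockout 1.23, 0.708 to 2.15), while within the high pair the ratio of transgenic to transplanted wild type was 1.36, with a lower bound at about 1 (1.0 to 1.86). Of the 50-base stretches of the Csf3r transcript, 11.2% also occur in transcripts of other annotated genes, so part of its reads may have been shared.

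Csf2rb (chr15:78325752-78353847) had the same high and low pairs at a higher level. It was at 9.08 FPKM in the transgenic library and at 5.36 in steady-state wild type (ratio 1.70, 1.41 to 2.04), and at 4.90 in the library labelled knockout and 11.7 in transplanted wild type, 2.38-fold lower (2.01 to 2.84). Within its high pair transplanted wild type exceeded the transgenic library 1.29-fold (1.11 to 1.5), and within its low pair steady-state wild type and the library labelled knockout did not differ beyond counting error (1.09, 0.891 to 1.34). Its neighbour Csf2rb2, which encodes the IL-3-specific β chain of mice, holds 18.4% of the 50-base stretches of Csf2rb, so reads of the pair may have been divided between them. Csf2rb2 was at 1.56 FPKM in the transgenic library and at 0.649 in steady-state wild type, and at 0.678 in the library labelled knockout and 1.96 in transplanted wild type. The sum of both genes was 10.6 and 6.01 FPKM in the transgenic and wild-type libraries at steady state, and 5.58 and 13.6 FPKM in the library labelled knockout and transplanted wild type, so the order of the libraries does not rest on that division. The α chain gene Csf2ra, which pairs with the β chain to bind GM-CSF, was more even, at 36.5 FPKM in the transgenic library and at 32.1 in steady-state wild type (ratio 1.14, 0.991 to 1.31), and at 38.6 in the library labelled knockout and 41.3 in transplanted wild type (0.933, 0.828 to 1.06).

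Csf1r, the receptor of monocytes and macrophages, followed another order. It was at 0.825 FPKM in the transgenic library and at 0.632 in steady-state wild type, from 22 and 17 reads, a ratio of 1.30 whose interval held 1 (0.662 to 2.62). It was at 1.00 FPKM in the library labelled knockout and 2.78 in transplanted wild type, from 32 and 79 reads, 2.77-fold lower (1.81 to 4.31). Transplanted wild type thus stood above the other 3 libraries, among which neighbours did not differ beyond counting error. The 8 monocyte or macrophage markers summed to 38.5 FPKM in the transgenic library and 25.6 in steady-state wild type, and to 29.2 in the library labelled knockout and 59.3 in transplanted wild type, with Cd14 at 0 in the library labelled knockout and no other marker at 0. In the transgenic library 4 of 6 measured markers were higher (46.7% of all genes), and in the library labelled knockout 7 of 7 were lower (56%). Their part in the level of Csf1r was not tested.

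Differences were counted at 2-fold on the log2(FPKM + 1) scale, which understates the change of low genes, among genes that reached 1 FPKM in at least 1 of the 2 libraries. For transgenic against wild type at steady state 7 of the 10 genes reached that level, and Cebpb (1.32), Cebpe (1.1) and Csf3r (1.21) were at least 2-fold higher, where 1.22% of 10843 genes were. None was 2-fold lower, against 0.682% of all genes. Differences of any size were positive for 5 of the 7 (46.7% of all genes) and negative for 2, Spi1 and Gfi1 (53.3%). The median difference of the 7 was 0.67, beside -0.02 for all genes; Cebpa, Cebpd and Csf1r were too low to enter. No count at 2-fold was left when 5 FPKM was asked for, since all 3 genes lay under it.

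For the library labelled knockout against transplanted wild type 8 genes reached 1 FPKM. Csf2rb (-1.1) and Csf3r (-1.02) were at least 2-fold lower, where 1.18% of 10790 genes were, and none was 2-fold higher, beside 0.667% of all genes. Csf1r (-0.91), Cebpb (-0.88) and Cebpe (-0.68) lay short of the threshold, and Gfi1b (0.51) was the 1 gene with a positive difference (44% of all genes), the other 7 being negative (56%). The median of the 8 was -0.78, beside -0.03 for all genes. With 0.5 FPKM in place of 1 as the pseudocount 4 of them were 2-fold lower, while the count over all genes rose from 127 to 191. With both libraries scaled to the same sum 1 of them was, and 112 of all genes were.

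**Figure D2:**
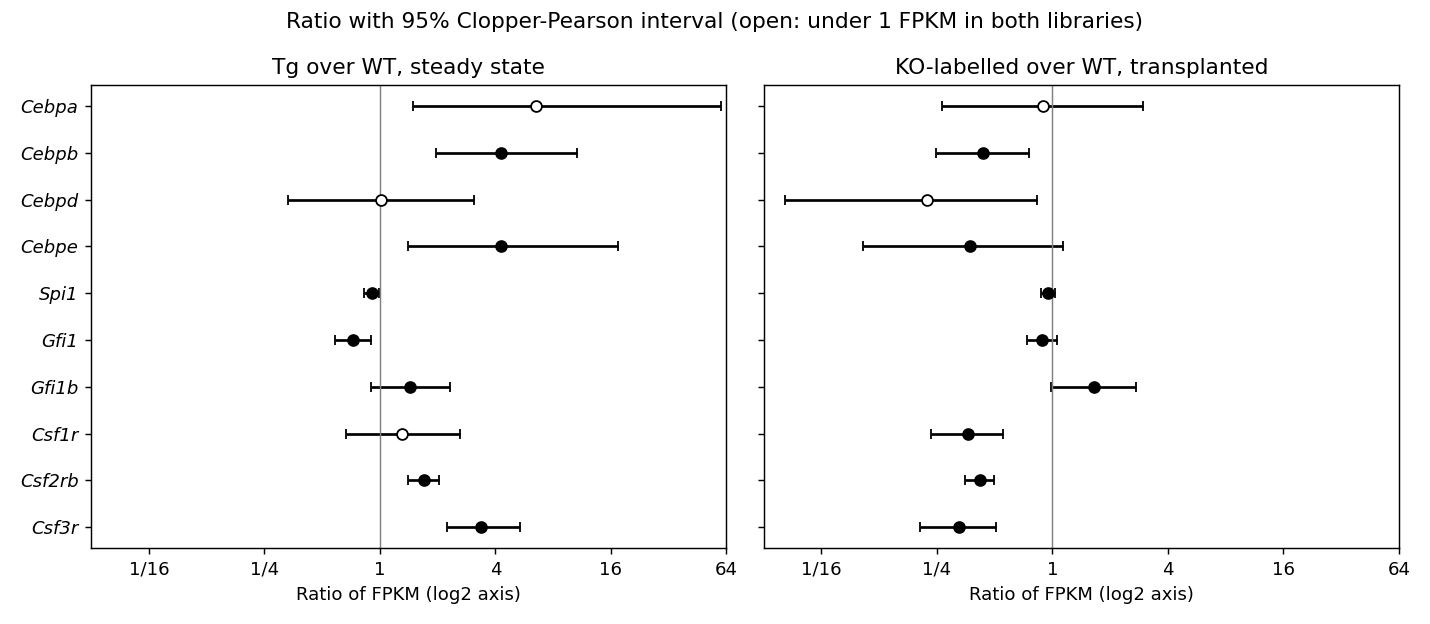
Ratio of FPKM with 95% Clopper-Pearson intervals for transgenic over wild type at steady state (left) and the library labelled knockout over transplanted wild type (right), on a log2 axis, with open points for genes under 1 FPKM in both libraries. Cebpb, Csf2rb and Csf3r lie right of 1 on the left and left of 1 on the right with intervals clear of 1, and Spi1 lies near 1 on both.

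Transplanted wild type was set against steady-state wild type to place these values, a comparison that shares its libraries with the other 2. Cebpb was at 4.28 FPKM in transplanted and 0.842 in steady-state wild type (ratio 5.08, 2.35 to 12.5), and Csf1r at 2.78 and 0.632 (4.39, 2.57 to 7.89). Both were at least 2-fold higher on the log2(FPKM + 1) scale, where 1.67% of 10835 genes were, and none of the 8 genes that entered was 2-fold lower, against 0.628%. By sign 6 were positive, beside 45.9% of all genes, and 2 negative, beside 54.1%. Csf2rb had a ratio of 2.18 (1.83 to 2.61) and Csf3r of 2.49 (1.61 to 3.98), while those of Spi1 (0.982, 0.901 to 1.07) and Gfi1b (0.731, 0.426 to 1.28) held 1. For Cebpb, Csf2rb and Csf3r the lowest pair of the 4 libraries was steady-state wild type and the one labelled knockout.

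Neutrophil markers had the same high and low pairs of libraries. All 9 were higher in the transgenic library than in steady-state wild type (46.7% of all genes), 6 of them by at least 2-fold (1.22%). All 9 were lower in the library labelled knockout than in transplanted wild type (56%), 8 of them by at least 2-fold (1.18%). Set against 1000 FPKM of these markers, the 4 C/EBP genes summed to 4.06 FPKM in the transgenic library and 2.74 in steady-state wild type, and to 4.70 in the library labelled knockout and 4.30 in transplanted wild type. The 3 receptors came to 7.96 and 9.78 FPKM per 1000 in the transgenic and wild-type libraries at steady state, and to 11.1 and 10.9 in the library labelled knockout and transplanted wild type. At steady state the C/EBP value per 1000 was higher in the transgenic library than in wild type, and the receptor value lower. After transplantation both values were slightly higher in the library labelled knockout than in wild type. These quotients carry no interval. S100a8 and S100a9 made up most of the marker sum in each library, at 720 and 670 FPKM in the transgenic one and 293 and 273 in steady-state wild type. The part of these cells in the C/EBP and receptor levels was not tested. Eosinophil markers, whose cells also carry Csf2rb, summed to 78.2 FPKM in the transgenic library and 24.2 in steady-state wild type, and to 17.9 in the library labelled knockout and 26.6 in transplanted wild type, with Ear1 at 0 outside the transgenic library and Epx at 0 in steady-state wild type; their part was not tested either. The 5 dendritic cell markers summed to less than 2 FPKM in each library, at most 1.95 in transplanted wild type. Mast cell or basophil markers (4) came to 0.11 FPKM in the transgenic library and 1.58 in steady-state wild type, and to 6.53 in the library labelled knockout and 4.16 in transplanted wild type. T or NK cell markers (4) came to 3.74 FPKM in the transgenic library and 3.98 in steady-state wild type, and to 3.55 in the library labelled knockout and 8.13 in transplanted wild type. That sum rests largely on Nkg7, at 1.9 FPKM in the library labelled knockout and 6.39 in transplanted wild type. Klrb1c went the other way there, at 0.665 and 0.267 FPKM. Plasma cell markers (4) came to 300 FPKM in the transgenic library and 417 in steady-state wild type, and to 90.7 in the library labelled knockout and 96.5 in transplanted wild type.

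**Figure D3:**
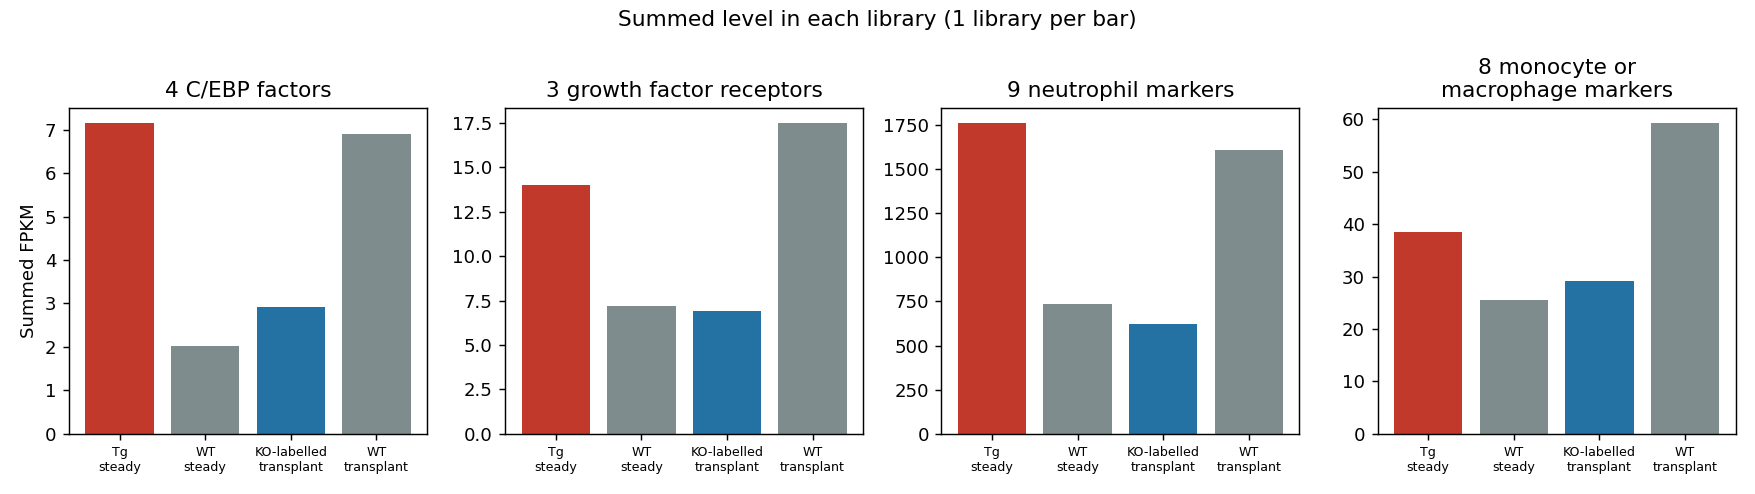
Summed FPKM of the 4 C/EBP genes, the 3 receptor genes, 9 neutrophil markers and 8 monocyte or macrophage markers in each library, with 1 library per bar and a separate axis for each panel. In all 4 panels the transgenic bar is above its wild type and the bar labelled knockout below its own, as for the neutrophil markers at 1760 and 737 FPKM and at 622 and 1610 FPKM.

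The granulocyte and monocyte genes known as targets of C/EBP factors and PU.1 had the same signs. Of 21 listed, 20 reached 1 FPKM. In the transgenic library all 20 were higher (46.7% of all genes, median difference 0.78), with 6 past 2-fold (1.22%). In the library labelled knockout 19 were lower (56%, median -1.25), with 13 past 2-fold (1.18%). Several of these genes are also neutrophil or monocyte markers above. Il1b, the interleukin-1β gene, was at 6.51 FPKM in the transgenic library and at 0.853 in steady-state wild type (ratio 7.63, 3.53 to 20.3), with a ratio of 0.233 (0.0746 to 0.560) for the library labelled knockout over transplanted wild type. Mmp8, the neutrophil collagenase gene, was at 4.90 and 0.972 FPKM in the same libraries, and at 2.2 in the library labelled knockout and 2.53 in transplanted wild type, a ratio of 0.872 (0.571 to 1.39). Mpo, the myeloperoxidase gene of primary granules, was at 11.4 FPKM in the library labelled knockout and 38.8 in transplanted wild type, and Ctsg, the cathepsin G gene, at 4.20 and 15.4. Their ratios for transgenic over wild type were 1.45 (1.23 to 1.71) for Mpo and 1.81 (1.02 to 3.31) for Ctsg. Lcn2, the lipocalin gene of secondary granules, was at 65.7 FPKM in the transgenic library and at 23.7 in steady-state wild type (ratio 2.77, 2.25 to 3.44), and Elane, the neutrophil elastase gene, at 24.5 and 13.4 (1.83, 1.37 to 2.46). In the transplanted pair Lcn2 had a ratio of 0.343 (0.278 to 0.423) and Elane of 0.326 (0.256 to 0.419). Itgam, the integrin gene of CD11b, was at 9.16 FPKM in the transgenic library and at 8.63 in steady-state wild type, and at 9.70 in the library labelled knockout and 9.08 in transplanted wild type.

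Other cytokine receptor genes had no 2-fold difference on the log2(FPKM + 1) scale. Of 12 listed, 7 were measured at steady state, 6 of them higher in the transgenic library and none by 2-fold (median 0.18). After transplantation 8 were measured, 6 of them lower in the library labelled knockout and none by 2-fold (median -0.19). As a plain ratio Csf2rb2 passed 2-fold in both pairs (2.4, 1.39 to 4.05, and 0.346, 0.215 to 0.552). Il1r2 did so at steady state (2.02), though its interval held 1. Kit, under 1 FPKM in every library, was not counted. It was at 0.971 FPKM in the transgenic library and at 0.22 in steady-state wild type, from 35 and 8 reads. That ratio was 4.41, with a lower bound of 2.01, while the one after transplantation held 1 (1.38, 0.792 to 2.63). Il6ra, the IL-6 receptor gene, was at 6.58 FPKM in the transgenic library and at 3.70 in steady-state wild type (ratio 1.78, 1.51 to 2.11), while its ratio for the library labelled knockout over transplanted wild type held 1 (0.876, 0.741 to 1.04). Il6st, the signalling chain gp130, was at 5.86 FPKM in the library labelled knockout and 10 in transplanted wild type (0.584, 0.516 to 0.660), while its steady-state ratio held 1 (0.912, 0.800 to 1.04). Il5ra, the IL-5 receptor α chain gene, was at 3.47 FPKM in the library labelled knockout and 5.93 in transplanted wild type (0.585, 0.453 to 0.759), with a steady-state ratio of 1.02 (0.718 to 1.46). Ifngr1, an interferon-γ receptor gene, had a ratio of 1.14 (1.02 to 1.29) for transgenic over wild type and of 0.848 (0.757 to 0.954) for the library labelled knockout over its wild type. Of the ligands, Csf1, which encodes M-CSF, was read in all libraries, at 4.99 FPKM in the transgenic library and at 5.89 in steady-state wild type, and at 5.61 in the library labelled knockout and 6.92 in transplanted wild type. The genes of GM-CSF (Csf2), G-CSF (Csf3), IL-3, IL-5 and IL-34 were at 0 or at most 0.167 FPKM in each library.

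The signalling genes below these receptors had small differences on the log2(FPKM + 1) scale. Of 16 measured, none passed 2-fold in either comparison, with medians of -0.02 for the transgenic library and -0.18 for the library labelled knockout. As a plain ratio Cish passed it at steady state, as given below. Socs3, the feedback inhibitor of the G-CSF receptor, was at 2.35 FPKM in the transgenic library and at 1.25 in steady-state wild type (1.88, 1.11 to 3.43), and at 1.42 in the library labelled knockout and 2.66 in transplanted wild type (0.532, 0.328 to 0.872). Cish, a target of STAT5, was at 1.97 and 0.908 FPKM in the transgenic and wild-type libraries at steady state (2.17, 1.19 to 3.96), and at 1.24 and 1.25 in the library labelled knockout and transplanted wild type (0.987, 0.543 to 1.71). Ptpn6, which encodes the phosphatase SHP-1, had a ratio of 0.989 (0.938 to 1.04) for transgenic over wild type and of 0.819 (0.786 to 0.852) for the library labelled knockout over transplanted wild type. Stap1, the related adaptor gene, was at 36.8 FPKM in the library labelled knockout and 48.3 in transplanted wild type (0.762, 0.700 to 0.829), with a steady-state ratio of 1.13 (1.02 to 1.24).

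Of 4 other genes related to the C/EBP factors by family or by name, Cebpg, Ddit3, Cebpz and Cebpzos, none had a 2-fold difference. Cebpz and Cebpzos share the name only. Cebpg, which encodes a widely expressed partner of the family, was at 24.8 FPKM in the transgenic library and at 24.5 in steady-state wild type, and at 24.4 in the library labelled knockout and 20.8 in transplanted wild type. Ddit3, the stress factor CHOP that dimerises with C/EBP proteins, was at 23.0 FPKM in the transgenic library and at 38.5 in steady-state wild type, a ratio of 0.598 (0.471 to 0.759), and at 34.2 in the library labelled knockout and 45.1 in transplanted wild type, a ratio of 0.758 (0.628 to 0.921). Its sign was opposite to that of Cebpb at steady state and the same after transplantation. Of 18 measured partners and opponents in lineage choice, 16 were lower in the transgenic library (53.3% of all genes), 1 by 2-fold (0.682%). In the library labelled knockout 8 were lower (56%), 4 by 2-fold (1.18%). The 1 gene lower by 2-fold in the transgenic library was Klf4, a factor of monocytes and of resting lymphocytes. It was at 19.1 FPKM there and at 48.1 in steady-state wild type. Klf4 was also lower in the library labelled knockout, at 14.0 FPKM, than in transplanted wild type, at 37.8. Egr1, Egr2 and Id2 were the other 3 in the library labelled knockout; Id2, the inhibitor of E proteins, was at 10.5 FPKM there and 23.1 in transplanted wild type, with a steady-state ratio of 1.44 (1.14 to 1.84). The B lineage factor Irf4 was at 173 FPKM in the transgenic library and at 259 in steady-state wild type, a ratio of 0.668 (0.646 to 0.691), and its ratio for the library labelled knockout over transplanted wild type was 1.21 (1.17 to 1.25).

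**Figure D4:**
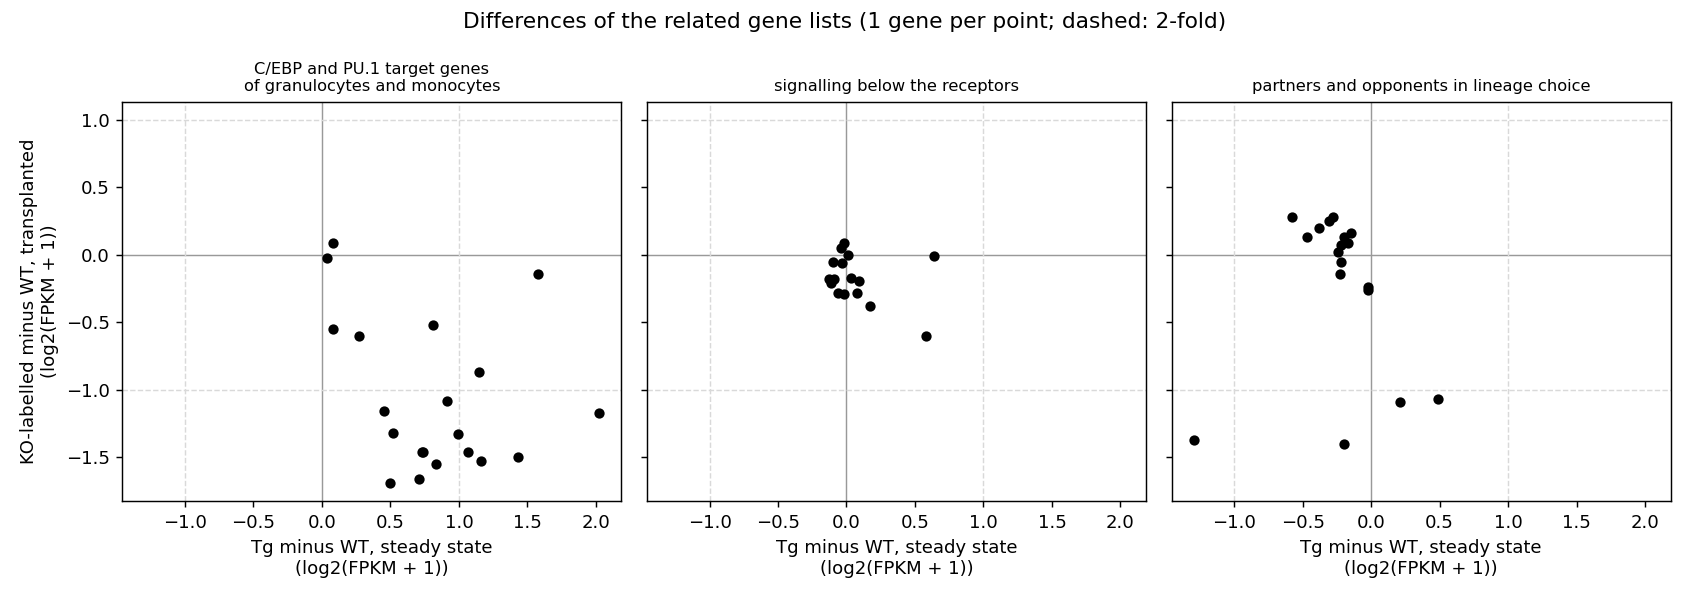
Difference of log2(FPKM + 1) for transgenic minus wild type at steady state (x axis) against the library labelled knockout minus transplanted wild type (y axis), 1 gene per point at 1 FPKM or more in any library, in 3 panels for target, signalling and lineage genes, with dashed lines at 2-fold. Of the 20 granulocyte and monocyte genes 19 lie to the lower right and Itgam just above 0 on both axes, at 0.08 and 0.09; Il1b is at 2.02 and -1.17, and the 16 signalling genes stay within 2-fold on both axes.

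The genes with the profile most like each of the 4 highest members were sought among 8208 genes, by the distance between log2(FPKM + 1) values centred over the 4 libraries. The nearest to Csf2rb were Ctsh, a lysosomal cathepsin gene (distance 0.21), the lysozyme gene Lyz1 (0.23) and Ms4a3, a gene of granulocyte and monocyte progenitors (0.23). Ms4a3 was at 4.28 FPKM in the transgenic library and at 1.70 in steady-state wild type, and at 2.0 in the library labelled knockout and 5.13 in transplanted wild type. The nearest to Spi1 were Zfand2a, Phf21a and Rbm22, to Gfi1 Klc3, L3mbtl3 and the pseudogene Znhit2-ps, and to Gfi1b Tmem138, Celsr2 and Tns3. Their distances ran from 0.0053 for the gene nearest to Spi1 to 0.11 for Tns3, over 4 libraries.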

How the data were processed

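Pre-B cell RNA of 4 libraries was measured, 1 per group. Per the labels' protocols, miRNeasy RNA went into TruSeq stranded mRNA libraries. Per the submitters' processing notes, the tools were Cufflinks 2.2.1, TopHat2 2.0.13, SAMtools 0.1.19 and Bowtie2 2.2.3, on mm10; roles, annotation and any scaling between libraries: not given in the sources used here. As for the unit, that of the deposited values was taken as FPKM from Cufflinks in these notes and from low values that step with transcript length, as no header states it. Reads were recovered from protein-coding genes with 1 transcript in GENCODE M21 on GRCm38. A length correction of 210 nt put on average 60.7% of values of up to 10 reads no more than 0.05 from a whole read (chance gives 10%), and the same genes set the depth; the share is in part a product of that fit. Members' reads took an annotated length that gave whole reads within 0.15 (Cebpa, Cebpb, Cebpe, Csf1r), the shortest length the steps allow (Cebpd) or the longest coding transcript (the others, approximate). Without molecular identifiers, reads may be copies of 1 molecule. Ratios carry exact Clopper-Pearson intervals (SciPy 1.17.1). No p-value is given with 1 library per group. Functions were tested on simulated data. Its changes lay only in genes at 5 FPKM or more in the control library, a level that Cebpb, Cebpe and Csf3r did not reach. Members and lists were chosen with earlier results of these data known. The rule for named genes took all members, up to 3 genes per list with the largest difference in each genotype comparison, 3 nearest profiles for each of the 4 highest members, and Stap2, and not all of them are printed. Spib, Csf2ra, Itgam, Cd79a, Gata1, Cd14, Kit, Cebpz and the unread ligands were added after their values were seen. Adgre1 and Cebpzos were found under older symbols. Other pseudocounts, minimum levels, scalings and lengths were tried.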

Additional observations from a re-analysis of the deposited data

How the results depend on the processing

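No paired analysis was possible because each group has 1 library, so no replicate number is shared more than once; for the same reason no library could be left out. Over 7 alternatives, 147 differences of single members stayed within their counting error, and 1 changed sign, that of Spi1 after transplantation (0.03 when scaled to the same sum). This count says little. Other minimum levels cannot change a member's difference, and a smaller pseudocount only moves it towards its plain ratio. Cebpa and Cebpd were not among these differences. A pseudocount of 0.1 gave 5 members 2-fold lower in the library labelled knockout and 5 higher in transplanted against steady-state wild type, where 0.5 gave 4 and 4. Over all genes 0.1 gave 275 higher and 159 lower for the transgenic library (132 and 74 in the report's setting), 154 and 267 for the library labelled knockout (72 and 127) and 346 and 158 for transplanted wild type (181 and 68). A pseudocount of 0.5 gave 112 and 191 for the library labelled knockout and 254 and 102 for transplanted wild type. Each moved because a smaller pseudocount shrinks low genes less. With 5 FPKM required, 0 members were 2-fold higher in the transgenic library (median -0.14), 1 was lower in the library labelled knockout and 0 were higher in transplanted wild type. Over all genes this left 69 higher and 44 lower for the transgenic library, 80 lower for the library labelled knockout and 41 lower for transplanted wild type, fewer genes being tested. Scaling to the same sum left 1 member 2-fold lower in the library labelled knockout and turned 72 higher and 127 lower genes into 122 and 112; the cause was not tested. It moved the median of all genes from -0.02 to -0.13 for the transgenic library, from -0.03 to 0.06 for the library labelled knockout and from -0.02 to -0.12 for transplanted wild type. With whole transcript lengths the lower bound of the Gfi1b ratio for the library labelled knockout was 1.02 in place of 0.978, and that of the Gfi1 ratio for transplanted over steady-state wild type 1.01 in place of 1.0. Depth limits Cebpa, Cebpd and Cebpe, which rest on 2 to 17 reads.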
